A study of Mus musculus with 8 samples.

Results

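The actomyosin, integrin and cadherin genes of the mouse lens capsule were described as a set of 43, taken by name from the 54532 genes of the count table. The set was chosen with earlier results of these data known. They comprised 22 contractile genes, 17 adhesion genes (8 integrin subunits and 9 focal adhesion proteins), 3 cadherins and Fap, which encodes a fibroblast cell surface protease. Bulk RNA was sequenced from lens capsules of wild-type C57BL/6 mice aged 6 to 8 weeks, taken 7 days after surgery, with 4 biological replicates in each of 2 groups. In the group labelled ASC, a 26-gauge needle was passed through the cornea to open the centre of the anterior capsule, an injury model of fibrotic cataract. In the sham group the cornea alone was cut, so both groups carried a corneal wound. The number of mice or capsules per library is not stated. The p-values below set the difference between the 2 groups against the spread among these 8 libraries.

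Lens epithelial cells sit as a single layer on the inner face of the capsule, a basement membrane to which they are bound by integrins. In fibrotic cataract some of them take on features of myofibroblasts, contractile cells with bundles of actin and non-muscle myosin. Integrins are heterodimers of an alpha and a beta chain that bind matrix outside the cell, and inside it they are coupled to actin by talin, vinculin and other focal adhesion proteins. Phosphorylation of the myosin regulatory light chain drives contraction, and many contractile genes are transcribed by serum response factor (SRF) bound to CArG boxes. E-cadherin and N-cadherin join neighbouring cells at adherens junctions.

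Library totals ran from 14420494 to 21141582 counts, and crystallin transcripts took 28.5 to 39.1% of them. The 43 genes together took 0.956% ± 0.0784 of the counts in sham and 0.943% ± 0.0670 in ASC (SD, n = 4 each). Levels below are CPM, the reads of a gene relative to the library's TMM-scaled total, as mean ± SD (n = 4). Log2 fold changes are ASC over sham from edgeR's quasi-likelihood test. Adjusted p-values are Benjamini-Hochberg values over 15857 genes, those at or above 0.05 count as not called, and intervals are 95% confidence intervals. The summed level of 7 lens epithelial markers, none at 0, was 31348 to 41681 CPM in sham and 31624 to 47074 CPM in ASC. Most of it was the crystallin gene Cryab (35500 ± 4701 and 38265 ± 6529 CPM), so the sum says little about the other 6. Of these, Pax6 was lower in ASC without overlap (455 ± 20.3 and 410 ± 20.7 CPM) but was not called (adjusted p = 0.502). Foxe3, Cdh1, Cp, Slc38a3 and Pdpn had log2 fold changes of 0.03, 0.03, 0.11, 0.03 and 0.28. Their groups overlapped and none of them was called. Markers of lens fibre cells, other eye tissues and blood were also detected. A list of 8 lens fibre markers summed to 4863 to 11897 CPM in sham and 7834 to 30222 CPM in ASC, with overlap. Its exact permutation p was 0.0571 (adjusted p = 0.21 over 11 marker lists). In this list edgeR called 2 genes, Cryge and Cryga, both higher in ASC without overlap. Their log2 fold changes were 3.46 and 3.65 (adjusted p = 0.0254 and 0.0243). A list of 7 pigmented epithelium markers summed to 89.2 to 255 CPM in sham and 181 to 656 CPM in ASC, and 5 red cell markers to 40.1 to 62.8 and 73.9 to 370.1 CPM (exact permutation p = 0.0571 and 0.0286, adjusted p = 0.21 for both over 11 marker lists). The red cell sums did not overlap, and 0.0286 is the smallest p that the 70 assignments of 8 libraries allow. A single list at that p cannot pass 0.05 after adjustment over 11 lists, so these adjusted values decide little. With 8 bulk libraries, a change in the number of cells of a type and a change in RNA per cell cannot be told apart.

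None of the 41 tested genes of the set passed the threshold in edgeR, where 1.02% of all tested genes did. An unadjusted p under 0.05 was reached by 9 of 41 (22.0%), against 14.7% of all tested genes. Of these, 8 had a higher level in ASC, a direction that 6.82% of all tested genes had at that p. DESeq2 called 2 genes of the set, Itgb8 and Mylk, and 3.74% of all genes, whereas limma-voom called none of the set. Without the low-count filter, which raised the share called to 2.26% of all genes, Itgb8, Cnn2 and Fap were called. The levels of the 2 groups did not overlap for Itgb8 and Ptk2, both higher in ASC, which is 4.88% of the 41. Among all tested genes 9.06% did not overlap, 3.39% with the higher level in ASC. With 1 library left out the count ran from 2 to 6. It was 5 without sham 2, 4 without sham 3, 5 without ASC 1, 4 without ASC 2 and 6 without ASC 4. Fewer libraries make separation easier for any gene. The share of all tested genes was not counted in these settings, so the 9.06% cannot be set beside these counts. Scaled by library totals alone, both genes overlapped and the count was 0.

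**Figure D1:**
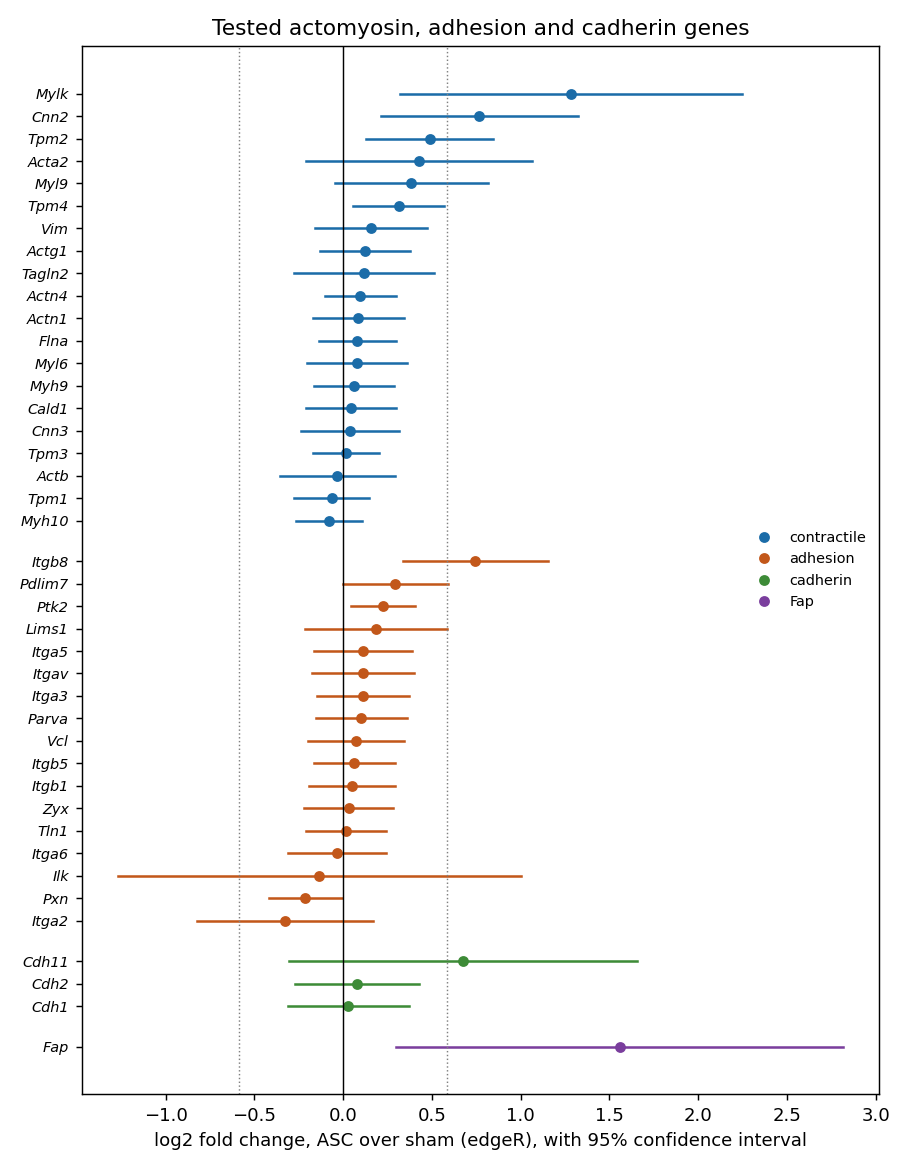
Log2 fold change of ASC over sham (x axis) for the 41 tested genes (y axis), with points for estimates, bars for 95% confidence intervals, dotted lines at a 1.5-fold difference and colours for the 4 gene classes. The intervals of 30 of the 41 genes lie within 1.5-fold in either direction, and those of Mylk, Cnn2, Itgb8 and Fap reach furthest to the right of the genes whose interval lies above 0.

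The intervals were narrow for most of the set. They lay within a 1.5-fold difference in either direction for 30 of 41 genes (73.2%) and for 51.3% of all tested genes. By class this held for 15 of 20 contractile genes, 13 of 17 adhesion genes and 2 of 3 cadherins. The 11 genes with wider intervals were Acta2, Cnn2, Myl9, Tpm2, Mylk, Ilk, Pdlim7, Itga2, Itgb8, Cdh11 and Fap. The estimate was above 0 for 34 of 41 genes with TMM scaling, but for 14 of 41 when libraries were scaled by their totals alone. The corresponding shares of all tested genes were 51.4% and 32.2%. The median log2 fold change of the set was 0.09 and -0.03 under these scalings, and that of all genes 0.01 and -0.12. With totals alone 0 genes of the set and 0.914% of all genes were called. The small positive differences of the abundant genes described below therefore depend on the scaling.

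Among the 22 contractile genes, 20 were tested and 0 were called by edgeR, with 4 at an unadjusted p under 0.05, all higher in ASC. DESeq2 called 1 of the 20 and limma-voom 0. Their median log2 fold change was 0.09 and their range -0.08 to 1.28. Ordered by level per kilobase of exon (RPKM, CPM divided by the combined exon length), the genes of the general cytoskeleton led. In sham the intermediate filament gene Vim stood at 654 ± 74.0 RPKM, the calponin Cnn3 at 231 ± 22.0, the cytoplasmic actins Actb and Actg1 at 183 ± 23.2 and 165 ± 8.55, the myosin light chain gene Myl6 at 85.7 ± 12.6, and Acta2 at 82.0 ± 19.6 RPKM. Actb and Actg1 did not differ beyond their spread, nor did Myl6 and Acta2. Actb and Actg1 are close in coding sequence and have many processed copies, so the split of reads between them is uncertain.

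**Figure D2:**
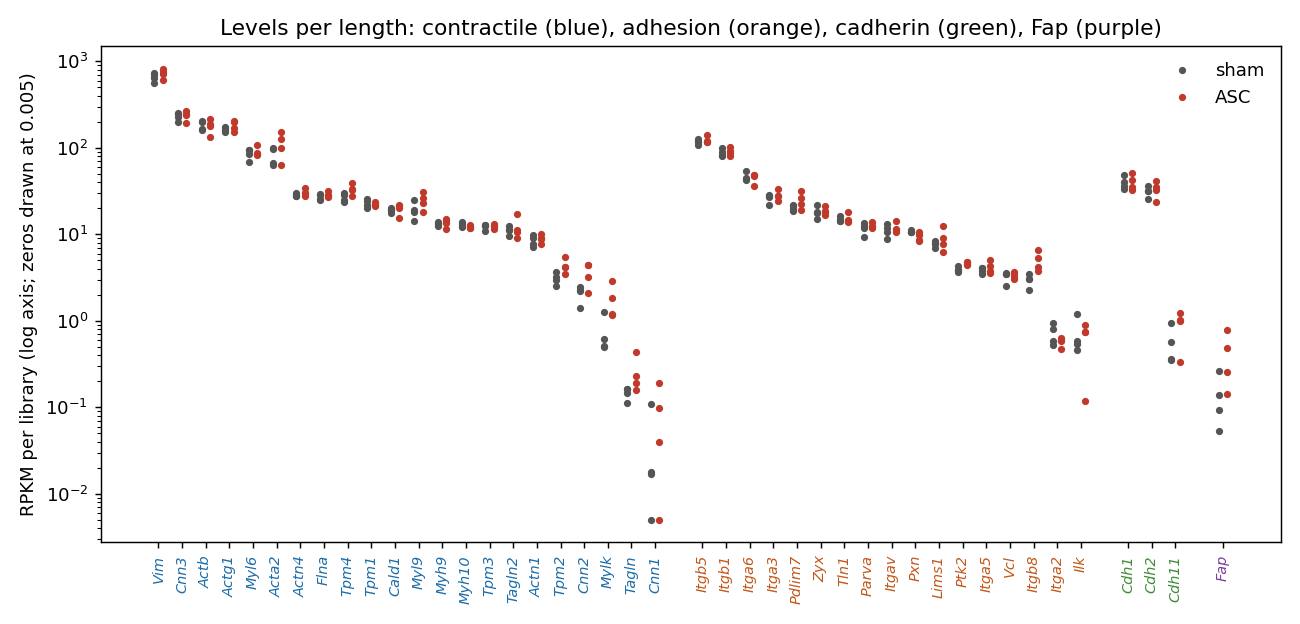
RPKM per library (log axis) of the 43 genes (x axis), with sham in grey and ASC in red and zero counts drawn at 0.005. The contractile genes span the widest range, from Vim to the nearly undetected Tagln and Cnn1, and the points of both groups overlap for most genes.

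Acta2 encodes alpha smooth muscle actin, the usual marker of myofibroblasts. It was at 215, 147, 139 and 219.7 CPM in sham 1 to 4 and at 279, 139.7, 334 and 216 CPM in ASC 1 to 4. ASC 2 and ASC 4 lay within the sham range, while ASC 1 and ASC 3 lay above it. The log2 fold change was 0.43 (interval -0.21 to 1.06, adjusted p = 0.527), so a difference of 2-fold in favour of ASC lay inside the interval. Within each group the 2 libraries with the highest Acta2 were those with the highest crystallin share (35.9 and 37.7% in sham 1 and 4, 38.6 and 39.1% in ASC 1 and 3), and the part of the crystallin share in its level was not tested. Acta2 made up 19.1% ± 4.26 of the RPKM of the 3 actin genes in sham and 23.3% ± 6.11 in ASC.

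Tagln and Cnn1, genes often raised with Acta2 in smooth muscle and myofibroblasts, had few reads in every library. Tagln, which encodes the actin-binding protein transgelin, had 7, 7, 6 and 3 reads in sham 1 to 4 and 5, 7, 8 and 13 in ASC 1 to 4. Cnn1, which encodes calponin 1, had 0, 1, 1 and 4 reads in sham and 0, 2, 9 and 4 in ASC. Both were below the expression filter and were not tested. Per length, Acta2 was 558-fold above Tagln in sham and 430-fold in ASC. The Tagln level is uncertain, since 67.9% of its exon length is covered by exons of Pcsk7 and Gm48529 on the other strand, and the strand setting of the counting is not given in the labels or notes used here. Cnn1 has no such overlap. A count of 3, the limit that a count of 0 allows, corresponded to 0.14 to 0.223 CPM, and refers to counting error only because reads carried no molecular identifiers. Their abundant relatives were Tagln2, at 23.1 ± 2.32 and 25.02 ± 7.45 CPM, and Cnn3, at 700.3 ± 66.8 and 719 ± 91.1 CPM (sham and ASC). Cnn3 held 99.1% ± 0.205 of calponin RPKM in sham and 98.4% ± 0.624 in ASC.

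Mylk encodes the kinase that phosphorylates the myosin regulatory light chain, and had the largest estimate of the contractile genes tested. It was at 5.62, 5.79, 14.2 and 6.92 CPM in sham and at 13.1, 13.7, 32.2 and 20.5 CPM in ASC. Sham 3 lay above ASC 1 and ASC 2, and the other 3 sham libraries lay below every ASC library. The log2 fold change was 1.28 (SE 0.41, interval 0.32 to 2.25, adjusted p = 0.222). DESeq2 gave 1.29 with an adjusted p of 0.00749. Over the 17 alternative settings the adjusted p ran from 0.00129 to 0.377, and without ASC 3 the estimate was 0.95. Sham 3 was also the highest sham library in summed pigment markers (255 CPM) and in photoreceptor markers, and the part of other eye tissue in the Mylk level was not tested.

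Promoter sequence around the start of these genes was searched for 3 motifs, the CArG box of SRF, the AP-1 site TGANTCA and the TEAD site GGAATG, each on both strands. RefSeq windows (GRCm38.p6) from 250 bases before to 50 after the start were found for 33 of the 43 genes. There was no window for Actb, Tagln, Pxn, Ptk2, Parva, Itga6, Cdh1, Cdh2, Cdh11 and Fap. The CArG pattern allowed only A or T between CC and GG, and looser or more distant sites were not searched. CArG boxes were found for 5 of the 33 (15.2%), Actg1, Cnn2, Myl9, Myl6 and Vcl, against 1.63% of all 32851 windows of this length. AP-1 matches were found for 5 (15.2%), Actn4, Cald1, Mylk, Zyx and Itga3, against 7.81% of windows, and TEAD matches for 10 (30.3%) against 14.7%. Some genes have more than 1 window, so the shares of genes and of windows have different bases and were not tested. The CArG-containing stretches of 4 genes and the AP-1 match of Mylk are shown 5′ to 3′ on the gene's strand, with the match in capitals, to set the motif beside the levels. The matches begin 90, 56, 161, 227 and 64 bases upstream of the start, in this order.
Actg1 (chr11:120348551-120348610, minus strand): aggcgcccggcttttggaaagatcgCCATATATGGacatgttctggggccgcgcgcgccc
Cnn2 (chr10:79988519-79988578, plus strand): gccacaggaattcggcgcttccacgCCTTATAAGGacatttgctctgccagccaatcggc
Myl9 (chr2:156775278-156775337, plus strand): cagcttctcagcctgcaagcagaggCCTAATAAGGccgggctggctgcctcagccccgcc
Vcl (chr14:20929148-20929207, plus strand): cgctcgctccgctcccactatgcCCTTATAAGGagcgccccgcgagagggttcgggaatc
Mylk (chr16:34784861-34784920, plus strand): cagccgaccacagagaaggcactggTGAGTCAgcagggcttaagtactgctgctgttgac

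The genes with these CArG boxes did not share 1 pattern of levels. Cnn2, the calponin of non-muscle cells, was at 3.46, 6.07, 5.42 and 5.58 CPM in sham and at 5.17, 10.8, 7.98 and 10.9 CPM in ASC. Only ASC 1 fell within the sham range. Its log2 fold change was 0.77 (SE 0.25, interval 0.21 to 1.32, adjusted p = 0.191). Without the low-count filter the adjusted p was 0.0162. Myl9, the regulatory light chain phosphorylated by the Mylk product, averaged 22.1 ± 5.09 CPM in sham and 28.8 ± 6.40 in ASC (0.38, interval -0.05 to 0.81, adjusted p = 0.395). Actg1 differed by 0.13 (-0.13 to 0.38), Myl6 by 0.08 (-0.20 to 0.36) and Vcl by 0.07 (-0.20 to 0.34) on the log2 scale, and all 3 estimates turned negative with library totals alone. Each of these 3 intervals excludes a 1.5-fold difference.

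The 4 tropomyosin genes, whose products lie along actin filaments and govern myosin access, had unequal estimates. Tpm2 was at 9.32, 10.6, 8.62 and 7.37 CPM in sham and at 10.1, 15.8, 12.2 and 12.4 CPM in ASC, with overlap only between ASC 1 and sham 2 (log2 fold change 0.49, SE 0.17, adjusted p = 0.201). Tpm4 was at 52.2, 62.8, 54.5 and 65.5 CPM in sham and at 85.7, 60.4, 72.3 and 73.6 CPM in ASC, where ASC 2 lay within the sham range (0.31, SE 0.12, adjusted p = 0.244). Tpm1 differed by -0.06 (-0.27 to 0.14) and Tpm3 by 0.02 (-0.17 to 0.20). Expressed as shares of the tropomyosin RPKM, Tpm1 took 33.1 to 38.1% in sham and 28.8 to 32.2% in ASC, without overlap, and Tpm4 took 40.9% ± 3.19 and 45.8% ± 3.50. These shares were not tested, and they do not depend on the scaling of the libraries.

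The remaining contractile genes had estimates within 0.16 of 0. Vim was at 3447, 3051, 2633 and 3269 CPM in sham and at 3603, 3416, 3918 and 2897 CPM in ASC, with overlapping groups (0.16, interval -0.16 to 0.47). The non-muscle myosin heavy chains Myh9 and Myh10 differed by 0.06 (-0.16 to 0.29) and -0.08 (-0.26 to 0.11), at nearly equal levels per length (13.2 ± 0.649 and 12.9 ± 0.750 RPKM in sham). Actb differed by -0.03 (-0.36 to 0.29). The actin crosslinkers Actn1, Actn4 and Flna differed by 0.09, 0.10 and 0.08. Cald1, the actin-binding caldesmon, and Cnn3 differed by 0.04 each, and Tagln2 by 0.12 (-0.28 to 0.51). With library totals alone the estimates of Actn1, Actn4, Flna, Cald1, Cnn3 and Myh9 were negative.

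**Figure D3:**
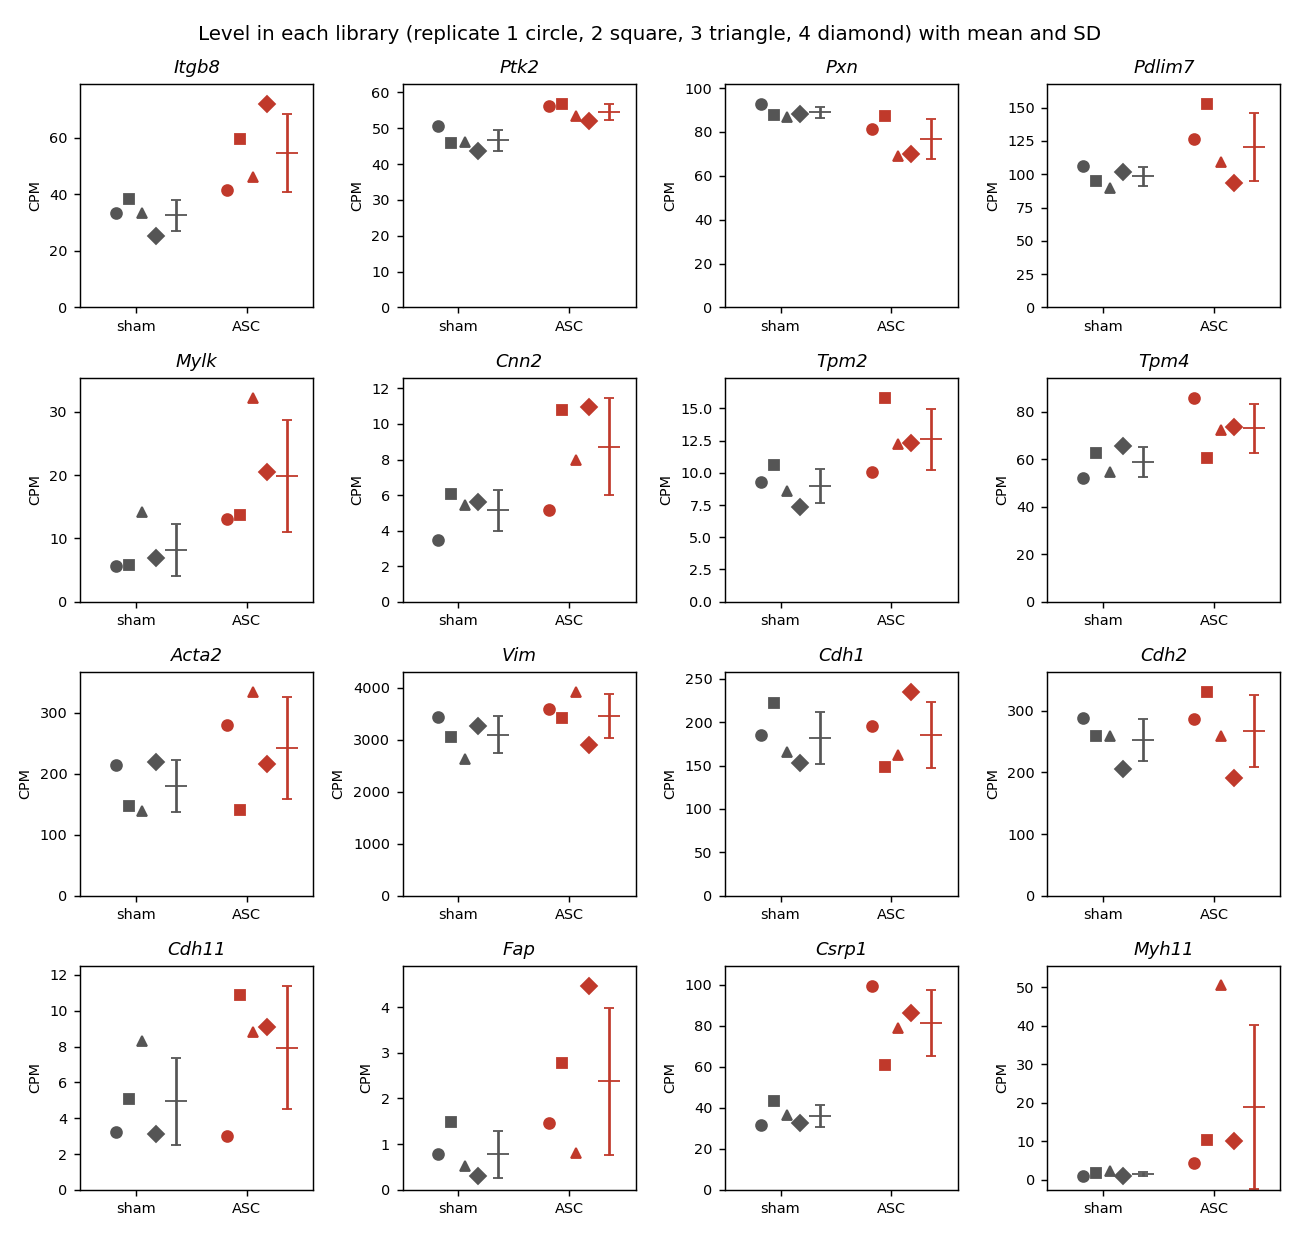
CPM in each library for 16 genes, with replicate numbers shown by symbol and mean ± SD drawn beside the points of each group; each y axis includes 0. The 2 groups separate for Itgb8, Ptk2, Csrp1 and Myh11 and overlap for the other 12, and the SD of Myh11 in ASC is set by ASC 3 at 50.5 CPM.

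Among the 17 adhesion genes all were tested and 0 were called by edgeR, with 4 at an unadjusted p under 0.05, of which 3 were higher and 1 lower in ASC. DESeq2 called 1 and limma-voom 0. The median log2 fold change was 0.07, with a range from -0.33 to 0.75. In the sham capsule the alpha chain genes ranked as Itga6 (46.3 ± 5.14 RPKM), Itga3 (26.2 ± 2.82), Itgav (11.1 ± 1.80), Itga5 (3.87 ± 0.303) and Itga2 (0.716 ± 0.193). No neighbours in this order overlapped within their spread. Among the beta chains, Itgb5 (118 ± 7.69 RPKM) and Itgb1 (87.8 ± 8.31) were far above Itgb8 (2.94 ± 0.490). Integrin alpha6 and alpha3 pair with beta1 as laminin receptors, alpha5 pairs with beta1 as the fibronectin receptor, and alpha2 pairs with beta1 as a collagen receptor. The alphav chain pairs with beta1, beta5 or beta8.

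Itgb8, whose product pairs with alphav and can release active TGF-beta from its latent complex, had the smallest p of the set. It was at 33.4, 38.2, 33.5 and 25.2 CPM in sham and at 41.5, 59.4, 46.1 and 71.9 CPM in ASC. Every ASC library lay above every sham library, and ASC 1 stood closest to the sham range. The mean was 32.6 ± 5.42 in sham and 54.7 ± 13.8 in ASC, a 1.68-fold difference (interval 1.26 to 2.22, log2 fold change 0.75, SE 0.18, adjusted p = 0.0893). DESeq2 put its adjusted p at 0.00423 and the fit without a low-count filter at 1.17e-07, while limma-voom gave 0.104. The fit without the filter took in 31455 genes, and the part of the added low-count genes in its small p was not tested. The estimate stayed between 0.58 and 0.86 over the 17 alternatives. It held 1.41% ± 0.184 of the RPKM of the 3 beta chains in sham and 2.29% ± 0.703 in ASC.

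Its partner chain and the other abundant integrins differed little. Itgav was at 114, 141, 126 and 95.2 CPM in sham and at 125, 114, 121 and 155 CPM in ASC (0.11, interval -0.17 to 0.40). Itgb1 was at 332, 404, 333 and 365 CPM in sham and at 417, 356, 379 and 331 CPM in ASC (0.05, interval -0.19 to 0.29). The groups overlapped for both, with ASC 4 the highest for Itgav and ASC 1 for Itgb1. Itgb5 differed by 0.06 (-0.17 to 0.29), Itga6 by -0.03 (-0.31 to 0.24), Itga3 by 0.11 (-0.15 to 0.37) and Itga5 by 0.11 (-0.16 to 0.39). Of these 6 genes, the 5 positive estimates became negative with library totals alone. Itga2 had the lowest estimate of the set, -0.33 (-0.83 to 0.17, adjusted p = 0.548), from 5.11 ± 1.38 CPM in sham to 4.06 ± 0.474 CPM in ASC.

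Of the focal adhesion proteins, Ptk2 encodes focal adhesion kinase, which is activated when integrins cluster. It was at 50.7, 45.9, 46.2 and 43.8 CPM in sham and at 56.1, 56.6, 53.5 and 52.0 CPM in ASC. Every ASC library lay above every sham library, and the spread within each group was small. The log2 fold change was 0.23 (SE 0.08, interval 0.04 to 0.41, adjusted p = 0.237), and 0.10 with library totals alone, where the groups overlapped. Pdlim7, an actin-associated PDZ and LIM domain protein, was at 106, 95.3, 89.7 and 102 CPM in sham and at 127, 153, 109 and 93.7 CPM in ASC, and ASC 4 lay within the sham range (0.29, SE 0.14, adjusted p = 0.339).

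Pxn, which encodes the scaffold protein paxillin, a partner of focal adhesion kinase, was the only gene of the set with a lower level in ASC at an unadjusted p under 0.05. It was at 92.7, 87.7, 86.9 and 88.3 CPM in sham and at 81.1, 87.3, 69.0 and 69.7 CPM in ASC. Only ASC 2 reached the sham range (-0.21, SE 0.10, interval -0.42 to -0.0042, adjusted p = 0.329).

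The proteins that link integrin tails to actin were near 0 in estimate. Talin (Tln1) differed by 0.02 (-0.21 to 0.24), vinculin (Vcl) by 0.07 and zyxin (Zyx) by 0.03 (-0.22 to 0.28). Of the complex of integrin-linked kinase, parvin and PINCH, Parva differed by 0.10 (-0.15 to 0.36) and Lims1, the PINCH gene, by 0.19 (-0.21 to 0.58). The kinase gene Ilk was at 1.91 ± 0.922 CPM in sham and 1.72 ± 0.954 in ASC, far below its partners Parva (120.0 ± 18.7) and Lims1 (38.2 ± 3.03). The Ilk level is uncertain because exons of Taf10 and Rrp8 on the other strand cover 89.7% of its exon length. For Vcl that share is 25.5%, from Ap3m1. The estimates of Tln1, Vcl, Zyx and Parva turned negative with library totals alone.

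**Figure D4:**
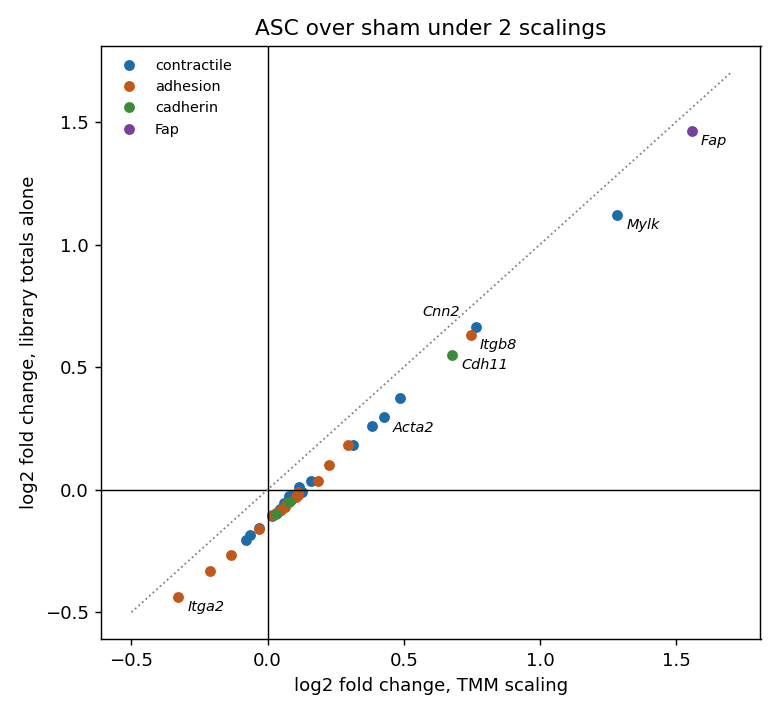
Log2 fold change of ASC over sham with TMM scaling (x axis) and with library totals alone (y axis) for the 41 tested genes, coloured by class, with the dotted line marking equal values. Points lie below the line throughout, so that 34 estimates are above 0 on the x axis and 14 on the y axis.

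All 3 cadherin genes were tested and none was called by edgeR, DESeq2 or limma-voom, with 0 at an unadjusted p under 0.05. E-cadherin (Cdh1), the epithelial cadherin, was at 185, 222, 166 and 153 CPM in sham and at 196, 149, 163 and 235 CPM in ASC. N-cadherin (Cdh2), which lens cells carry together with E-cadherin, was at 288, 258, 258 and 205 CPM in sham and at 287, 329.9, 259 and 191 CPM in ASC. The groups overlapped for both, with log2 fold changes of 0.03 (-0.31 to 0.37) and 0.08 (-0.27 to 0.43), so a 1.5-fold difference lay outside either interval. Cdh1 held 52.4 to 59.8% of the RPKM of the 3 cadherins in sham and 43.6 to 67.4% in ASC. The lowest share was in ASC 2, the highest in ASC 4, and the other 2 ASC libraries lay within 1 percentage point of the sham range.

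Cdh11, the cadherin of mesenchymal cells, was at 3.23, 5.09, 8.33 and 3.13 CPM in sham and at 2.997, 10.9, 8.79 and 9.11 CPM in ASC. The ASC libraries 2 to 4 lay above every sham library and ASC 1 lay below all of them. The log2 fold change of 0.68 had an interval from -0.30 to 1.66 (adjusted p = 0.517). Fap, expressed by activated fibroblasts, rested on few reads, 17, 32, 11 and 4 in sham and 23, 51, 14 and 66 in ASC. In CPM it was at 0.796, 1.49, 0.533 and 0.298 in sham and at 1.47, 2.77, 0.81 and 4.45 in ASC. Sham 2 exceeded ASC 1 and ASC 3, so the groups overlapped (log2 fold change 1.56, SE 0.57, interval 0.30 to 2.82, adjusted p = 0.242).

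Markers of fibroblasts and of the corneal surface moved in part. Of 8 fibroblast and corneal stroma markers, 6 were tested and 1 was called. Col1a1, a chain of type I collagen, rose from 1.55 ± 0.434 to 4.51 ± 0.469 CPM (2.89-fold, adjusted p = 0.0186) without overlap. It had 16 to 43 reads per sham library and 68 to 79 per ASC library. Col1a2, the other type I chain, was more abundant and was not called (43.6 ± 14.6 and 45.3 ± 15.4 CPM, 1.04-fold, adjusted p = 0.956). Pdgfra, Col3a1 and Thy1 were not called either (adjusted p = 0.754, 0.27 and 0.606), and Lum and Kera were below the filter. Dcn, the matrix proteoglycan decorin, was at 2.72 ± 2.19 and 13.8 ± 11.6 CPM, also without overlap (4.97-fold, adjusted p = 0.235). ASC 3 stood at 31.2 CPM and the other ASC libraries at 7.59 to 8.37 CPM. The summed level of the 8 markers, 349 to 435 CPM in sham and 347 to 451 CPM in ASC, was mostly Pdgfra (337 ± 27.9 and 311 ± 62.4 CPM). Kera was at 0 in all libraries but ASC 3, which had 4 reads. Of 8 corneal and conjunctival epithelium markers, 6 were tested and 3 rose, namely Krt12, Krt5 and Krt6a, with adjusted p from 0.0387 to 0.0426. Krt12 went from 0.435 ± 0.421 to 4.27 ± 1.51 CPM and Krt5 from 0.841 ± 0.600 to 10.04 ± 5.99 CPM. Krt13, Krt15 and Aldh3a1 were not called (adjusted p = 0.176, 0.434 and 0.707), and Krt14 and Trp63 were below the filter. Their sum, mostly Aldh3a1, was 389 to 606 CPM in sham and 354 to 958 CPM in ASC, with overlap (exact permutation p = 0.571, adjusted p = 0.786). The part of fibroblasts and corneal cells in the Cdh1, Cdh11 and Fap levels was not tested.

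Other genes of the same pathways were examined as 5 lists. Among 22 further actin-binding and smooth muscle genes, 20 were tested and 1 was called by edgeR, with 8 at an unadjusted p under 0.05, all higher in ASC. Csrp1 rose. It encodes a LIM domain protein of the actin cytoskeleton found in smooth muscle and stood at 31.5, 43.5, 36.7 and 32.5 CPM in sham and at 99.3, 61.0, 79.1 and 86.1 CPM in ASC. Every ASC library was above every sham library, and the rise was 2.26-fold (log2 fold change 1.17, SE 0.15, adjusted p = 0.00373). It passed the threshold in all 17 alternatives, with estimates from 1.03 to 1.29.

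The smooth muscle myosin gene Myh11 was at 1.08, 1.68, 2.18 and 0.968 CPM in sham and at 4.40, 10.4, 50.5 and 10.1 CPM in ASC. The groups did not overlap, and ASC 3 was far above the others. The log2 fold change was 3.65 (SE 0.88, adjusted p = 0.131), and without ASC 3 it was 2.47 with an adjusted p of 0.0173. DESeq2 also called it (adjusted p = 0.000321), as did the fit without robust estimation (adjusted p = 0.0396), and over the alternatives the adjusted p reached 0.38. ASC 3 was also the ASC library highest in Mylk and Acta2. Of the other smooth muscle markers, Des was at 0.21 ± 0.287 CPM in sham and 0.862 ± 0.508 in ASC and Actg2 at 0.0307 ± 0.037 and 0.149 ± 0.218, both below the filter. The summed level of 9 vascular smooth muscle and pericyte markers was 115 to 161 CPM in sham and 109 to 167 CPM in ASC, most of it Pdgfrb. Pdgfrb was at 122 ± 20.7 and 101 ± 13.9 CPM (-0.27, adjusted p = 0.372), and Notch3 differed by 0.05 (adjusted p = 0.962). Lmod1, Rgs5 and Cspg4 had estimates of 0.60, 0.45 and 0.76 (adjusted p = 0.313, 0.841 and 0.516), and Kcnj8 was below the filter. Myh14 and Smtn, a myosin heavy chain and smoothelin, had estimates of 0.36 and 0.66 (adjusted p = 0.171 and 0.217), and Msn, an actin-to-membrane linker, 0.21 (adjusted p = 0.25). The most abundant genes of this list, Gsn and Ezr, differed by 0.04 and 0.10.

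Of 25 regulators of actin dynamics and SRF activity, 24 were tested and 0 were called by edgeR, DESeq2 or limma-voom, with 4 at an unadjusted p under 0.05 in edgeR. Limk2, a kinase that phosphorylates cofilin, had 157 ± 7.20 CPM in sham and 128 ± 12.4 in ASC (-0.30, SE 0.09, adjusted p = 0.17), without overlap. Srf itself was at 24.5 ± 1.74 and 20.8 ± 0.252 CPM (-0.24, SE 0.09, adjusted p = 0.256), also without overlap. Rhoc and Rac1, small GTPases, had estimates of 0.26 and 0.29 (adjusted p = 0.271 and 0.315). Exons on the other strand cover 51.4% of Rac1. The most abundant genes, Arhgef12 and Pfn1, differed by -0.08 and 0.09.

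Of 30 further focal adhesion genes, 28 were tested and 0 were called by the 3 tools, with 2 at an unadjusted p under 0.05 in edgeR. Fblim1, a filamin-binding LIM protein, had 1.41 ± 0.613 CPM in sham and 3.05 ± 1.04 in ASC (1.12, SE 0.39, adjusted p = 0.21). The most abundant, Tns3 and Tln2, differed by -0.14 and -0.03. Of 13 other integrin subunits, 8 were tested and 0 were called by the 3 tools, with 1 at an unadjusted p under 0.05 in edgeR. This was Itga7, a laminin-binding chain of muscle, with 6.18, 7.19, 6.78 and 4.99 CPM in the sham libraries and 7.59, 8.04, 9.31 and 20.9 in ASC (0.86, SE 0.32, adjusted p = 0.258), with ASC 4 standing above the other libraries. Of 15 adherens junction partners and other cadherins, 14 were tested and 0 were called by the 3 tools, with 1 at an unadjusted p under 0.05 in edgeR. This was Cdh13 (0.86, SE 0.38, adjusted p = 0.32). The beta-catenin gene Ctnnb1, at 525 ± 26.5 CPM in sham, differed by -0.09 (-0.34 to 0.16), and Nectin3 by 0.01.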

How the data were processed

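The authors deposited 1 table of raw read counts per gene for 8 poly-A RNA-seq libraries of lens capsule, 4 sham and 4 ASC. The submitters' processing notes name featureCounts 1.5.0-p3, HISAT2 2.0.5, fastp and CASAVA. The genome build, annotation, strand setting and treatment of reads matching several genes are not given in these sources. Strand and multiple matches bear on overlapping genes (Tagln, Ilk) and on near copies (Actb, Actg1).

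Symbols were matched for 54409 of 54532 gene identifiers. Genes were filtered with filterByExpr and tested with the robust quasi-likelihood test of edgeR 4.0.16 in R 4.3.3, after TMM scaling, with no covariate. All 8 libraries entered 1 fit of 2 groups. SE is the size of the log2 fold change divided by the square root of F. RPKM used exon lengths of GENCODE release 21, and log2 CPM a prior count of 2. Each marker sum was tested by an exact two-sided permutation of the labels (70 assignments, smallest p 0.0286). Alternatives were DESeq2 1.42.0, limma-voom (limma 3.58.1), other scalings and filters, crystallins left out, a replicate block, a non-robust fit and each library left out. Replicates differed by more than sampling noise (chi-square per degree of freedom 23.6 to 75.5), so none was counted as a duplicate. Of these tests, edgeR alone was also run on simulated counts with planted changes. Those counts had no outlying library and no shift between groups in the other genes, so that run does not cover such limits here.

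The genes of the set, the pathway and marker lists and the rule for named genes were chosen with earlier results of these data known. That rule gave library values for genes past the threshold, with an unadjusted p under 0.05 or without overlap, and for Acta2, Vim, Tagln, Cdh1, Cdh2, Cdh11, Fap, Itgb1, Itgav and Itgb8. In each pathway list it named called genes, up to 4 with the smallest unadjusted p under 0.05, and the 2 most abundant. One gene that this rule names is not reported here. The cell type markers given by name were chosen after their values were seen. In CPM, lens fibre markers summed to 7875 ± 2948 in sham and 19110.1 ± 9141 in ASC, macrophage and leukocyte markers to 28.4 ± 14.1 and 48.7 ± 21.5, endothelium to 9.60 ± 5.21 and 10.9 ± 4.60, corneal epithelium to 490.3 ± 113 and 619 ± 250.4, platelet markers, with Gp1bb at 0 in all libraries, to 4.68 ± 0.435 and 5.04 ± 0.638, and photoreceptor markers to 2064 ± 1469 and 3038 ± 791.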

Additional observations from a re-analysis of the deposited data

Results flagged for a closer look

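In 86 groups of 4 libraries, 1 library stood far from the other 3 in 4 cases, where about 1 in 20 groups would do so by chance. Vcl was at 20.5 CPM in sham 1, with the nearest sham library at 28.2. Ilk was at 0.326 CPM in ASC 2 (6 reads), with the nearest at 2.02. Itga6 was at 327 CPM in ASC 4, with the nearest at 428. Cdh11 was at 2.997 CPM in ASC 1, with the nearest at 8.79, and without ASC 1 its log2 fold change was 0.95 (adjusted p = 0.21).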

How the results depend on the processing

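Over the 17 alternatives, 639 of 697 values for the 41 genes kept their direction and side of the threshold, 6 became significant and 52 changed direction. All genes called numbered 162 in edgeR, 593 in DESeq2, 712 without a low-count filter and 56 to 228 with 1 library left out (79, 56, 109 and 67 without sham 1 to 4, 101, 228, 72 and 67 without ASC 1 to 4). Contractile genes called were 1 in DESeq2, 1 without the filter and 1 with the replicate block. Adhesion genes called were 1 in DESeq2 and 1 without the filter. With 1 library left out, 0 genes of the set were called. Genes without overlap numbered 0 with library totals alone and 2 to 6 with 1 library left out. Fewer libraries make separation easier, and the shares of all genes in these settings were not counted.

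Deviations of libraries with the same replicate number correlated at 0.22, 0.06, 0.21 and -0.09, so the numbers were not taken to pair the samples. Not every library correlated best with its own number. With the replicate block 169 genes were called, Mylk (adjusted p = 0.00129) and Myh11 (adjusted p = 0.0313) among them, and Itgb8 was at 0.152.

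With library totals alone the log2 fold change turned negative for Actg1 (-0.011), Cnn3 (-0.090), Myl6 (-0.027), Myh9 (-0.056), Tpm3 (-0.11), Actn1 (-0.040), Actn4 (-0.022), Cald1 (-0.079), Flna (-0.042), Vcl (-0.056), Zyx (-0.096), Tln1 (-0.105), Parva (-0.029), Itga3 (-0.013), Itga5 (-0.010), Itgav (-0.020), Itgb1 (-0.082), Itgb5 (-0.070), Cdh1 (-0.100) and Cdh2 (-0.049), and the log2 ratio of summed markers for lens epithelium (-0.017) and platelets (-0.015). In limma-voom Myh9 (-0.013), Tln1 (-0.024) and Cdh1 (-0.023) turned negative. The shift of all genes under totals accompanies these changes; otherwise the cause was not tested.

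With 1 library left out, estimates that changed sign ran from -0.13 to 0.081 for Actb, -0.11 to 0.23 for Tagln2, -0.025 to 0.12 for Cnn3, -0.020 to 0.13 for Myl6, -0.032 to 0.041 for Tpm3, -0.011 to 0.14 for Cald1, -0.038 to 0.12 for Vcl, -0.046 to 0.12 for Zyx, -0.079 to 0.062 for Tln1, -0.38 to 0.23 for Ilk, -0.014 to 0.32 for Lims1, -0.075 to 0.057 for Itga6, -0.013 to 0.103 for Itgb1, -0.0027 to 0.096 for Itgb5, -0.11 to 0.13 for Cdh1 and -0.041 to 0.21 for Cdh2. Marker sums that did so ran from -0.12 to 0.097 for vascular smooth muscle, -0.10 to 0.031 for fibroblasts and -0.026 to 0.60 for endothelium. Depth limits Tagln, Cnn1, Fap and Ilk, which rest on few reads per library.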
